A study of Mus musculus with 2 samples.

Results

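Genes of the nerve cell's synapse and cytoskeleton were followed in open chromatin of a calf muscle: Snap25, Syt1, Syn1, Gad1, Slc17a7, Camk2a, Nrgn, Stmn2, Tubb3 and Map2. All 10 were present in the GENCODE M21 annotation (mm10), which lists 21911 genes that code for protein. The members were chosen by their peaks in these same libraries, so the presence and height of their peaks are given as a description and were not tested. The samples were gastrocnemius, a hindlimb muscle, of female B6CASTF1/J mice (F1 hybrids) aged 10 days, in 1 group of 2 DNase-seq libraries labelled biological replicates 1 and 2, each labelled as 3 females, with no treatment or other condition. In DNase-seq, open chromatin is found where DNase I, a nuclease, can reach and cut the DNA. Peak height is a signal normalized to read depth by the authors. A lower height from fewer nuclei with an open site cannot be told apart from less opening in each nucleus.

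As background, synaptic vesicles fuse when a SNARE complex is pulled together on calcium entry, and the transmitter released is taken up again or made by enzymes and transporters that define the neuron's type. Neurons keep their shape with neuron-specific tubulin and microtubule-associated proteins. In cells that are not neurons, many of these genes are bound by REST, a repressor that recognizes the RE1 element, a motif of 21 bp. Muscle receives the axons and terminals of motor neurons, while the nuclei of those neurons lie in the spinal cord.

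The list of replicate 1 held 114758 peaks and that of replicate 2 held 26804, at median heights of 1.18 and 1.48. Heights rose in steps of 0.00597 and 0.0107, a ratio of 1.80, and replicate 1 would be the deeper library by that factor if both were scaled alike. For equal numbers, replicate 1 was also limited to its 26804 tallest peaks, which began at a height of 2.71. Of the muscle markers, 6 of 10 had a promoter peak in replicate 1 (66.7% of all genes), 2 of 10 in its tallest peaks (49.6%) and 4 of 10 in replicate 2 (51.4%). Actn3 was the tallest at 14.7 and 5.02, with Mef2c at 3.37 and 1.06 and Ckm (muscle creatine kinase) at 2.63 and 3.46. Myod1, Ryr1 and Ttn had one in replicate 1 only and Acta1 in replicate 2 only, while Myog, Des and Tnnt3 had none in either library. Sequencing instruments are named in the labels for replicate 1 only. Neuron identity markers had one at 9 of 10 in replicate 1, 8 of 10 in its tallest peaks and 3 of 10 in replicate 2.

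The sequences shown first are the sites where replicate 2, the library with few peaks at these genes, had a peak on an RE1 match. The mm10 sequence is written on the gene's strand with the RE1 match in capitals. At Gad1 the match lies on the opposite strand, so it reads as the reverse complement, and the peak is from the longer list of replicate 2.
Snap25, intron, chr2:136714241-136714400, + strand: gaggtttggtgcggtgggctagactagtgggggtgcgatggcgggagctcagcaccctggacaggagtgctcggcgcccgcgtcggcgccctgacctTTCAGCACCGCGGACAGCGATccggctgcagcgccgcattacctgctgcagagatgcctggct
Syn1, upstream, chrX:20921091-20921177, - strand: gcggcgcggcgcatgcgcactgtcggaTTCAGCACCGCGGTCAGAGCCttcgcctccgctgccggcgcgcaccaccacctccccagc
Stmn2, upstream, chr3:8508169-8508294, + strand: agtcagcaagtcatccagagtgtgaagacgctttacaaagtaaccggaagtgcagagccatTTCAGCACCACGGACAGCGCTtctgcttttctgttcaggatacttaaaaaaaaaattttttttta
Gad1, intron, chr2:70559601-70559768, + strand: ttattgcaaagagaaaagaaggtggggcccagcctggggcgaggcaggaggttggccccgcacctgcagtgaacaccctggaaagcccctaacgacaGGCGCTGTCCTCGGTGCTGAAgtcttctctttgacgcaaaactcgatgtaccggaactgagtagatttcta
Read on the strand of the element, the 4 matches of 21 bases began alike.
Snap25 element: ttcagcaccgcggacagcgat
Syn1 element: ttcagcaccgcggtcagagcc
Stmn2 element: ttcagcaccacggacagcgct
Gad1 element: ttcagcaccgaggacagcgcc
Against the RE1 consensus the Gad1 element had 0 mismatches, those of Syn1 and Stmn2 had 1 each and that of Snap25 had 2.

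Across the 10 genes, replicate 1 had promoter peaks (within 1 kb of any annotated transcription start site, TSS) at all 10, where 66.7% of all protein-coding genes had one. Replicate 2 had them at 4 of 10, namely Snap25, Syn1, Camk2a and Map2, where the share of all genes was 51.4%. Both libraries had one at the same 4 of 10 (51.0% of all genes), and 6 of 10 had one in replicate 1 without one in replicate 2 (15.7%). Among the tallest peaks of replicate 1 there was one at 7 of 10 (49.6% of all genes), and 4 genes had one there and none in replicate 2 (5.25% of all genes): Stmn2, Syt1, Slc17a7 and Tubb3. With a window of 2 kb the counts were equal, 7 of 10 in the tallest peaks of replicate 1 (51.1% of all genes) and 7 of 10 in replicate 2 (52.6%). No member had a promoter peak within 1 kb in replicate 2 alone (0.461% of all genes). In number there were 27 promoter peaks in replicate 1 and 4 in replicate 2. Per gene that was a mean of 2.7 and 0.4, against 1.49 and 0.891 over all genes. Map2, with 23 annotated TSS positions, had 7 of the 27, and Gad1, with 7 positions, had 6. Of the 4 genes with one in both libraries, the tallest was higher in replicate 1 at 3 (94.5% of all such genes), Camk2a being the exception.

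The position of these peaks differed too. In replicate 1, 14 of the 27 promoter peaks lay over a TSS, at 9 of the 10 genes (54.9% of all genes had a peak over a TSS), the exception being Nrgn. Its tallest peaks lay over a TSS at 7 of 10 (40.9% of all genes). In replicate 2, 0 of the 4 did, at 0 of 10 genes, where 38.1% of all genes had a peak over a TSS in that library. The peaks of replicate 2 were centred 842 bp after the nearest TSS at Snap25, 130 bp before it at Syn1, 123 bp before it at Map2 and 150 bp after an internal TSS at Camk2a.

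**Figure D1:**
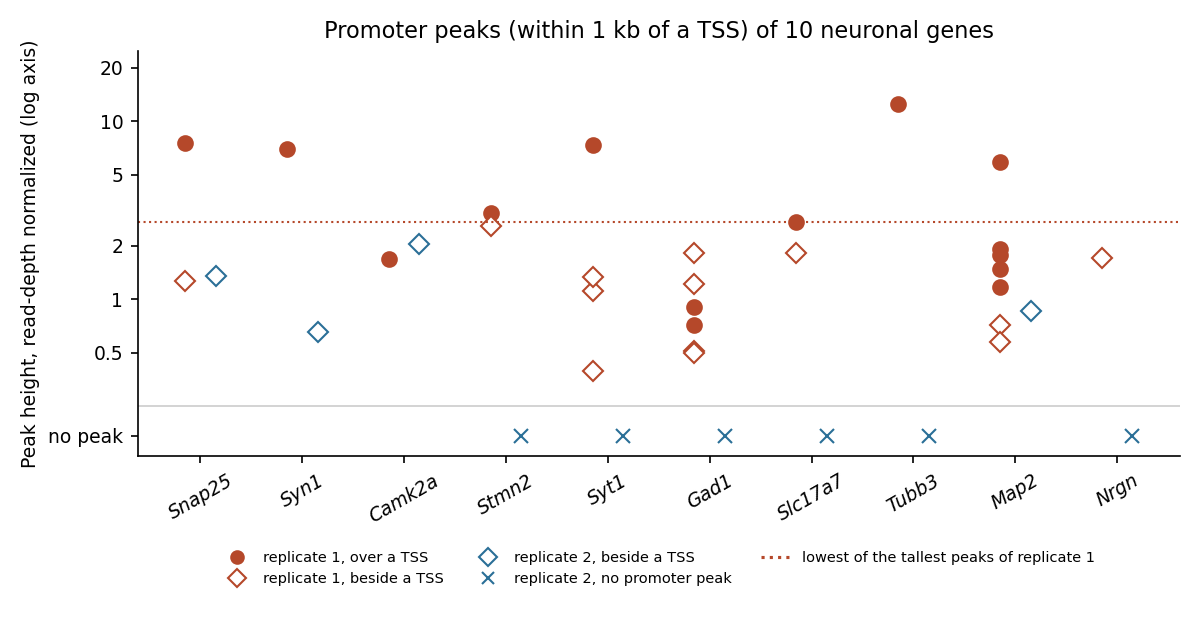
Height of every promoter peak of the 10 genes (vertical axis, read-depth normalized signal, log axis) in replicate 1 (red) and replicate 2 (blue). Filled circles lie over a TSS, open diamonds beside one, and crosses mark genes with no promoter peak. The replicate 2 symbols are 4 open diamonds and 6 crosses, and the dotted line is the height of 2.71 at which the tallest peaks of replicate 1 begin.

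Of the genes of vesicle release, Snap25, the SNARE protein of the presynaptic membrane, had a peak of height 7.60 over its TSS in replicate 1 and a second of 1.27 in the first part of the gene, centred 762 bp after the nearest TSS. Replicate 2 had no interval with a false discovery rate (FDR) of at most 0.05 under the first, and a peak of 1.34 overlapping the second. Both of these overlapping peaks hold the whole RE1 match of Snap25. The peak over the TSS was listed in replicate 1 only. The lowest FDR in the shared peak was 6.17e-11 in replicate 1 and 5.44e-07 in replicate 2.

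Syt1, the calcium sensor of synaptic vesicles, had 4 promoter peaks in replicate 1, of which the one over its TSS reached 7.35 and the others ran from 0.394 to 1.34. Replicate 2 had no promoter peak there, and 458 bases of its promoter windows lay in intervals with an FDR of at most 0.05, the lowest being 0.00303. Its longer list had 3 promoter peaks at Syt1, the tallest 0.493. Across the 10 genes, an FDR of at most 0.05 was found at all 10 promoters in replicate 1 (71.8% of all genes) and at 6 in replicate 2 (60.9%), Syt1 and Stmn2 being the 2 without a listed peak. An FDR under 0.001 was found at 10 of 10 members in replicate 1 (67.3% of all genes) and 4 of 10 in replicate 2 (52.9%).

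Syn1, which coats synaptic vesicles, had 1 promoter peak in each library, of 6.99 in replicate 1 and 0.654 in replicate 2. The peak of replicate 1 is 280 bp wide, spans the TSS and holds the whole RE1 match, while that of replicate 2 is 87 bp wide, lies upstream of the TSS and also holds it. The lowest FDR of replicate 2 within its peak was 0.000331. This was the lowest of the replicate 2 promoter peaks of these genes, and 8.02% of all peaks of that library were as low or lower.

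The genes that mark transmitter type had promoter peaks in replicate 1 only. Gad1, which makes the inhibitory transmitter GABA, had 6 of them, between 0.495 and 1.81, none among the tallest. Slc17a7, the vesicular glutamate transporter VGLUT1, had a peak of 2.72 over its TSS and another of 1.83 inside the gene, centred 1036 bp before an internal TSS, just within the limit of 1 kb by its edge. Replicate 2 had 0 bases at an FDR of at most 0.05 in the promoter windows of Gad1 and of Slc17a7. The Slc17a7 peak lay just inside the limit of the tallest peaks at 2.71, and the nearest promoter peak of a member outside it was one of 2.59 at Stmn2. Of the distal peaks of the members, the nearest outside it was one of 2.67 at Snap25.

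Neither postsynaptic gene had a promoter peak among the tallest of replicate 1. Camk2a, the alpha subunit of the calcium and calmodulin-dependent kinase II of forebrain synapses, had 1.67 over its first TSS in replicate 1, and 2.05 in replicate 2 at an internal TSS centred 38132 bp further into the gene. Neither library had an interval of FDR of at most 0.05 under the peak of the other, so Camk2a is counted in both libraries at different sites. Its peak was the tallest promoter peak of the members in replicate 2, where the median over all genes with one was 2.03. Nrgn (neurogranin), which binds calmodulin in dendritic spines, had 1.71 in replicate 1 and 0 bases at an FDR of at most 0.05 in replicate 2.

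Of the cytoskeleton genes, Tubb3, the neuronal beta-tubulin, had the tallest promoter peak of the 10 genes, 12.6 over its TSS in replicate 1, higher than or equal to 97.1% of all peaks of that library. In replicate 2 there were 0 bases at an FDR of at most 0.05 at its promoter. Stmn2, a regulator of microtubules in growing axons, had 3.07 over its TSS and 2.59 inside the gene in replicate 1. Replicate 2 had no promoter peak at Stmn2 in the stricter list, one of 0.300 in the longer list, and a lowest FDR of 0.0142.

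Map2, the microtubule-associated protein of dendrites, is annotated with 23 TSS positions and had 7 promoter peaks in replicate 1. They ran from 0.573 to 5.91, the tallest at the first TSS, with peaks of 1.48 and 1.91 at a promoter 146447 and 146747 bp into the gene. Replicate 2 had a single peak of 0.858, overlapping the tallest of replicate 1. Overlapping promoter peaks (at least 50% of either) were found at 3 of the 10 genes, namely Snap25, Syn1 and Map2 (45.0% of all genes).

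Footprints, short stretches that the authors called as protected from DNase I, were counted within the peaks. Replicate 1 had at least 1 footprint in a promoter peak at 10 of 10 genes (66.3% of all genes), in all 92 of them from 2 at Nrgn to 22 at Gad1. Replicate 2 had them at 4 of 10 (49.9% of all genes), with 4 at Snap25, 4 at Camk2a, 1 at Syn1 and 1 at Map2. The libraries differ in the number of peaks and in the step of their heights, and the part of these in the footprint counts was not tested.

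All protein-coding genes were put in 3 classes of nearly equal size by their CpG content (observed over expected) within 500 bp of the first TSS. Of the 10 genes, 1 was in the high class (Syn1), 7 in the middle and 2 in the low class (Camk2a and Stmn2). In the middle class of all genes, 82.0% had a promoter peak in replicate 1 and 58.3% in replicate 2.

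RE1 matches with at most 2 mismatches lay near 5 of the 10 genes. With at most 3 there were 11 matches at 7 genes, of which 3 lay under a peak in each library. In the genome the shares of the 8359 such matches were 3.67% in replicate 1 and 2.40% in replicate 2. Within 50 kb of a TSS or in the body of the 10 genes there were 6 matches with at most 2 mismatches, at Snap25, Syn1, Camk2a, Stmn2 and, with 2 of them, Gad1. Replicate 2 had a peak on 3 of the 6 (7.38% of the 1382 such matches in the genome), and so did replicate 1 (6.87%), whose list is 4.28 times as long. Of its tallest peaks, 1 did, that of Syn1 (1.59% of matches in the genome). With the longer lists the counts were 4 of 6 in replicate 2 (166 of the 1382 in the genome) and 3 of 6 in replicate 1 (9.77%). Of the 5 matches with at most 1 mismatch, 2 lay under a peak of replicate 2 (16.9% of 260 in the genome), 2 under one of replicate 1 (10.8%) and 1 under its tallest peaks (2.31%). The longer lists gave 3 in replicate 2 (27.7%) and 2 in replicate 1 (14.2%).

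At Stmn2 the match lay 1120 bp before the TSS under a replicate 2 peak of 0.579, and replicate 1, the library with the longer list, had 0 bases at an FDR of at most 0.05 on it. At the same gene replicate 1 had its TSS peak of 3.07, under which replicate 2 had 123 bases at an FDR of at most 0.05. At Gad1 the match with 0 mismatches lay 2334 bp before the nearest TSS and inside an intron of longer transcripts. Replicate 1 had a peak of 0.573 there that covers 9 of the 21 bases, and replicate 2 one of 0.922 in its longer list. All 21 bases had an FDR of at most 0.05 in both libraries. The lowest on the match was 0.000275 in replicate 1 and 0.0214 in replicate 2.

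Footprints lay on the match in part of these cases. At Snap25 replicate 2 had 2 footprints covering 18 of the 21 bases and replicate 1 had 0, although its peak covers the match. At Gad1 replicate 1 had 1 footprint covering 10 bases and replicate 2 had 1 covering 13. At Syn1 and Stmn2 neither library had a footprint on the match. The matches of Camk2a, 16058 bp into the gene, and the second of Gad1, 39002 bp after the nearest TSS, lay under no peak of either library.

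**Figure D2:**
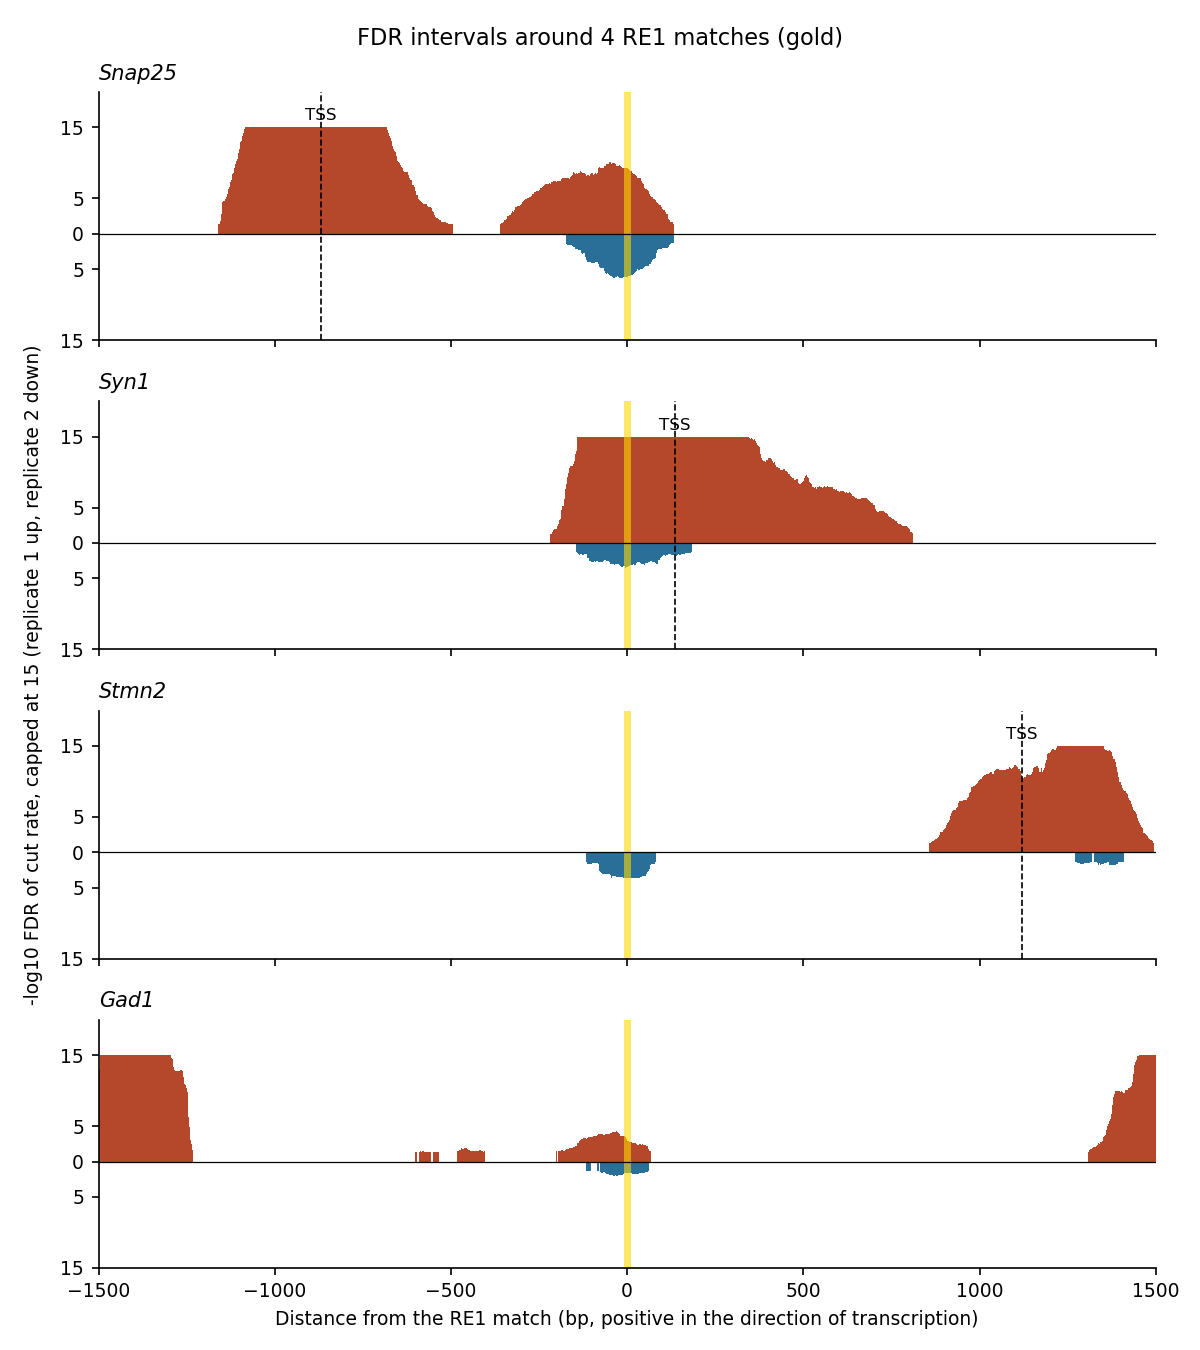
FDR of the cut rate as −log10 (vertical axis, capped at 15) within 1500 bp of 4 RE1 matches (gold), replicate 1 drawn upward in red and replicate 2 downward in blue, with gaps where no interval of at most 0.05 was listed. Dashed lines mark the nearest TSS, which at Gad1 lies outside the panel. Intervals of both libraries cover the match at Snap25, Syn1 and Gad1, with the lower FDR in replicate 1. On the Stmn2 match only replicate 2 has them. Replicate 1 also stands over the TSS of Snap25, Syn1 and Stmn2. Under those peaks over the TSS, replicate 2 has intervals at Syn1 and Stmn2 but none at Snap25.

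In the central 150 bp of promoter peaks, an RE1 match with at most 3 mismatches was found in 2 of the 4 peaks of replicate 2 (Snap25 and Syn1) and in 0 of the 27 of replicate 1, where 0.329% of the 17315 promoter peaks of replicate 2 and 0.221% of the 29877 of replicate 1 held one. Over the whole length of the peaks the count was 2 in each library, since the matches of Snap25 and Syn1 lie in the replicate 1 peaks outside that central window. The shares of all promoter peaks were then 0.497% in replicate 2 and 0.415% in replicate 1. The motif TGACGTCA, the palindromic cAMP response element, was in 2 of the 27 peaks of replicate 1, those over the TSS of Snap25 and Syn1, and in 1.72% of all promoter peaks of that library. In replicate 2 it was in 1 of the 4, the window of 150 bp around the Syn1 peak, and in 1.21% of all its promoter peaks. The GC box GGGCGG was in 9 of the 27 and in 41.6% of all promoter peaks. All motifs were read on both strands, and a match is a string of letters, not a bound site.

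Distal peaks, farther than 1 kb from every protein-coding TSS and within 50 kb of one of the gene's own, were more numerous in replicate 1. The 10 genes had 84 in its whole list, 21 in its tallest peaks and 11 in replicate 2. In the whole genome these lists held 84881, 13773 and 9489 distal peaks. Per gene the members averaged 8.4, 2.1 and 1.1, and all genes 4.93, 1.02 and 0.826, so the members were above the mean in both libraries. At least 1 was found at 10 of 10 genes in the whole list (84.0% of all genes), 8 in the tallest (44.3%) and 6 in replicate 2 (40.1%). Just outside the limit of 1 kb lay, among others, the Stmn2 peak of replicate 2 on its RE1 match and a Snap25 peak of replicate 1. The latter was centred 1164 bp before the TSS, with a height of 0.710. Replicate 1 peaks at Tubb3, Stmn2, Nrgn and Gad1 were as near, centred 1140, 1144, 1148 and 1153 bp after the nearest TSS. The tallest peaks of replicate 1 held more than replicate 2 at 7 of 10 genes (25.7% of all genes) and fewer at 1, Nrgn (16.4%). The median was 1.5 per gene against 1 in replicate 2, where the median of all genes was 0 in both.

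**Figure D3:**
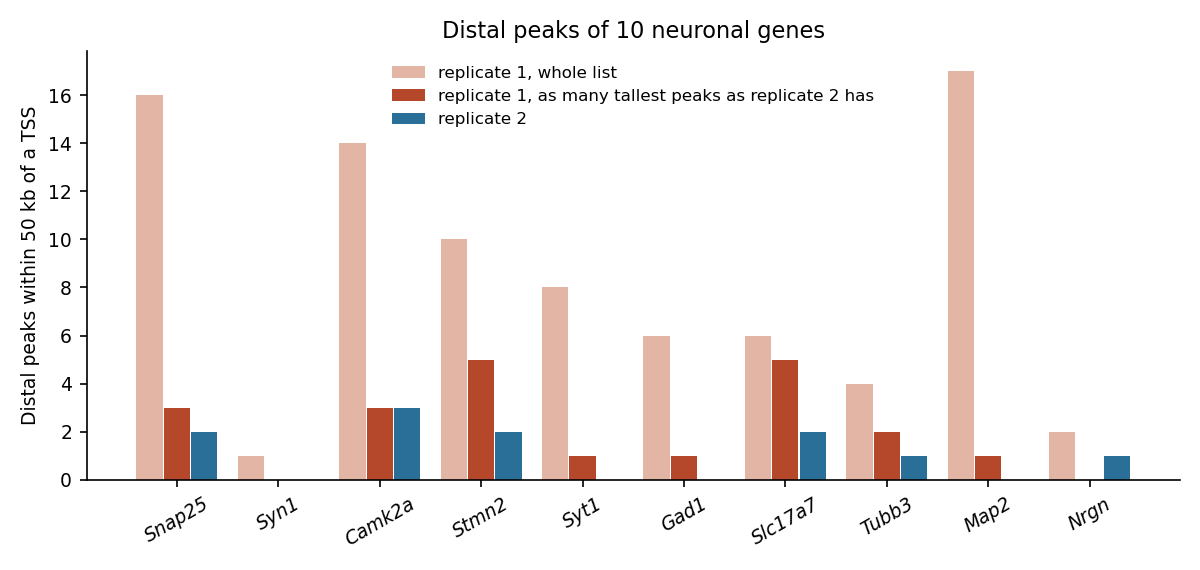
Distal peaks within 50 kb of a TSS of each gene (vertical axis, number of peaks) in the whole list of replicate 1 (pale red), its 26804 tallest peaks (red) and replicate 2 (blue). Map2 with 17 and Snap25 with 16 lead in the whole list, and the red bars exceed the blue at 7 of the 10 genes.

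The genes were not alike in this. Map2 had 17 distal peaks in replicate 1, 1 among the tallest and 0 in replicate 2. Snap25 had 16, 3 and 2. Camk2a had 14, 3 and 3. Stmn2 and Slc17a7 each had 5 among the tallest and 2 in replicate 2, but 11 other protein-coding genes have a TSS within 50 kb of Slc17a7 and none does at Stmn2. Syn1 had 1, 0 and 0. Of the 84 peaks, 41 lay in introns of the gene, 6 in exons, 21 upstream and 16 downstream, and for 67 the nearest TSS was that of the gene itself.

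The tallest distal peaks stood at Slc17a7 and Stmn2. The one at Slc17a7 was centred 1619 bp before the TSS with a height of 20.9 in replicate 1, and overlapped a replicate 2 peak of 2.29. The one at Stmn2, just past the end of the gene and 52570 bp from its first TSS, was 14.3 in replicate 1, and replicate 2 had 0 bases there at an FDR of at most 0.05. Their mm10 sequence is shown because they are the 2 tallest distal peaks of these genes, with the footprints of replicate 1 in capitals.
Slc17a7, upstream, chr7:45162221-45162440, + strand: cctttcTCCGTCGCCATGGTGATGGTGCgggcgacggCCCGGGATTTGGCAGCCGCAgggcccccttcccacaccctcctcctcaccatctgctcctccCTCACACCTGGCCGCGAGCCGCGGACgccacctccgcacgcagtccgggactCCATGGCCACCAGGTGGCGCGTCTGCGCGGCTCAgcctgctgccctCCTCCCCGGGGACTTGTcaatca
Stmn2, downstream, chr3:8561801-8562060, + strand: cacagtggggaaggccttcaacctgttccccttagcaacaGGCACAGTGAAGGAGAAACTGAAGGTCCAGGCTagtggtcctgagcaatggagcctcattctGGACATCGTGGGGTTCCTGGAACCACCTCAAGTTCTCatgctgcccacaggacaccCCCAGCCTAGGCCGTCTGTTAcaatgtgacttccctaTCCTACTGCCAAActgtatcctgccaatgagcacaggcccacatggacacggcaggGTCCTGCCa
The Slc17a7 peak had 5 footprints over 119 bases and the Stmn2 peak 5 over 112.

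Where the libraries overlapped, replicate 1 was usually the higher. Of the 11 distal peaks of replicate 2, 9 overlapped one of replicate 1. In the whole genome there were 6842 overlapping distal pairs beside 9489 distal peaks of replicate 2, so overlap was common in that library. With the 3 promoter pairs the members gave 12 pairs. The height in replicate 1 was above that in replicate 2 in 10 of the 12 (83.3%), with a median ratio of 3.01, where 85.5% of all 20104 overlapping pairs were higher in replicate 1 at a median ratio of 2.35. The ratios ran from 0.946 to 10.7. They were 10.7 at Syn1, 9.10 at the Slc17a7 upstream site and 6.89 at Map2. The Snap25 pair on the RE1 match had 0.948 and that of Nrgn 1.04. The 5th and 95th percentiles of all pairs were 0.615 and 8.39. The ratios of Syn1 and of the Slc17a7 upstream site lay above the 95th, and the lowest of the members, 0.946, lay above the 5th.

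**Figure D4:**
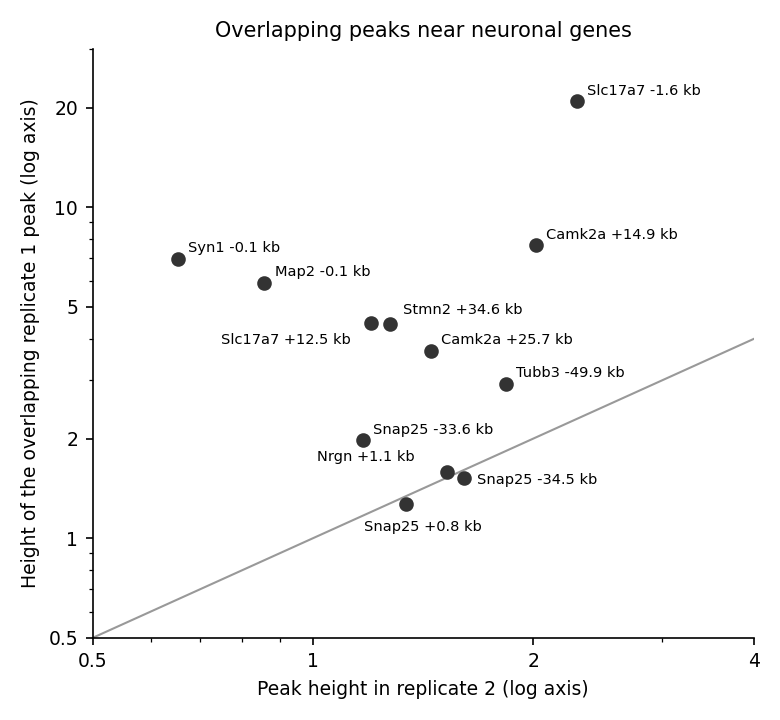
Height of the 12 overlapping peak pairs near the 10 genes in replicate 2 (horizontal axis) and replicate 1 (vertical axis), both read-depth normalized signal on log axes, labelled with the distance from the nearest TSS. The line marks equal height, and 10 of the 12 pairs lie above it.

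The consensus of CTCF, a protein that binds at chromatin loop ends, was in 5 of the 9 distal peaks of replicate 1 that overlapped replicate 2 and in 11 of the 75 that did not. Over all distal peaks of replicate 1 the shares were 47.2% of the 6754 that overlapped replicate 2 and 14.6% of the 78127 that did not. The 5 were 2 at Camk2a and 1 each at Stmn2, Slc17a7 and Tubb3. In replicate 2 it was in 4 of the 11 (31.9% of all its distal peaks). The E-box CAGATG, which the CTCF consensus can contain, was in 18 of the 84 (24.3% of all distal peaks of replicate 1) and CAGCTG in 8 (18.0% of all).

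Other genes of the synapse and neuronal cytoskeleton, 61 in a wider list, were counted in the same way. Of these, 58 had one in replicate 1 (66.7% of all genes), 48 in its tallest peaks (49.6%) and 24 in replicate 2 (51.4%), and 0 in replicate 2 alone (0.461%). In the longer list of replicate 2 the count was 42 (59.7% of all genes), against 6 of the 10 members. By role, promoter peaks in the tallest peaks of replicate 1 and in replicate 2 were found at 19 and 9 of 19 vesicle genes, 14 and 9 of 18 postsynaptic genes, 14 and 6 of 16 cytoskeleton genes, and 1 and 0 of 8 transmitter genes. The transmitter group had the lowest share in both, its peak among the tallest being that of Slc17a6 (VGLUT2) at 7.70, and Th, Chat and Slc18a3 (enzymes and a transporter of catecholamine and acetylcholine neurons) had no promoter peak in either.

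Among the genes of that list with the tallest promoter peaks in replicate 1 and none in replicate 2 were Map1a (17.0) and Tubb2b (15.6), which build or bind microtubules, Bsn (13.3), a scaffold of the release site, Syn2 (11.99), a paralog of Syn1, and Nefm (9.39), a neurofilament subunit. Vamp2, the vesicle SNARE and partner of Snap25, had 15 distal peaks in the tallest of replicate 1 but 17 in replicate 2, against its promoter heights of 15.4 and 2.57. Tubb2b had 8 and 0, Syn2 7 and 0, and Shank1, a postsynaptic scaffold, 7 and 4. In the wider list, of 21 RE1 matches with at most 2 mismatches, 6 lay under a peak of replicate 1 (6.87% of those in the genome), 1 under its tallest peaks (1.59%) and 2 under a peak of replicate 2 (7.38%). The longer lists gave 6 in each library, so which library had more depended on the list. The matches under a peak of replicate 2 were at Ina (1.49, and 0.674 in replicate 1) and Syt4 (0.611).

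**Figure D5:**
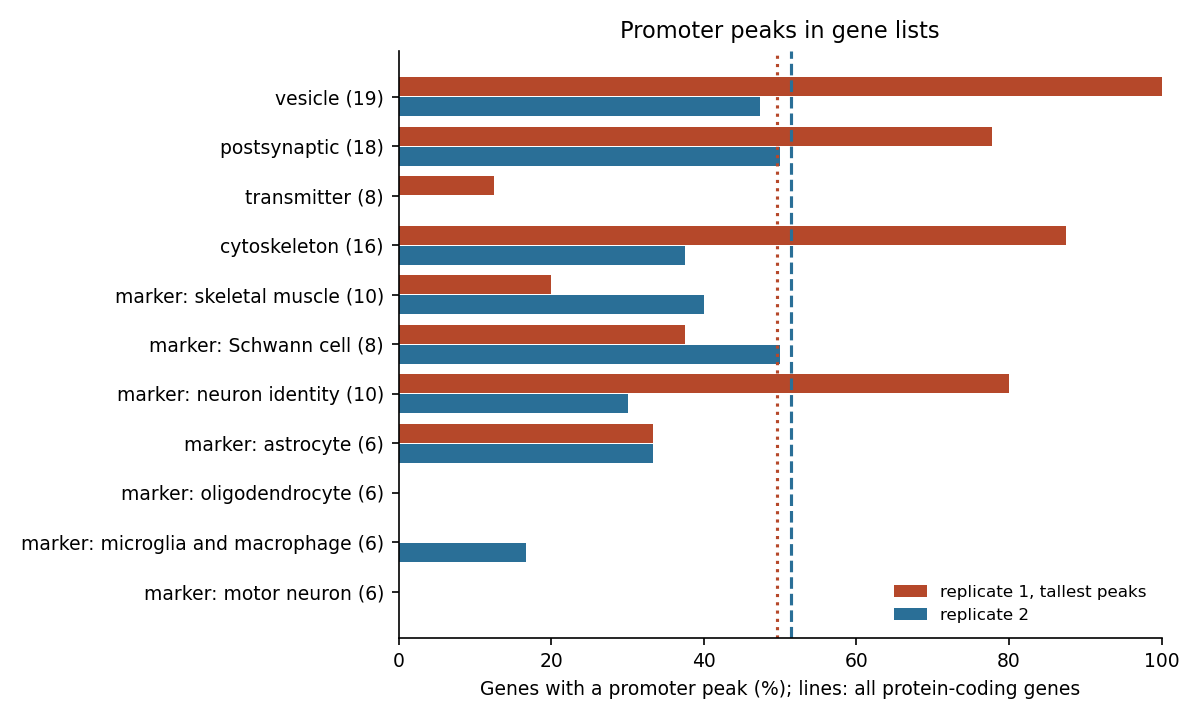
Share of genes with a promoter peak (horizontal axis, percent) in the 26804 tallest peaks of replicate 1 (red) and in replicate 2 (blue) for the wider list by role and for cell type markers, with the number of genes in brackets. The lines are the shares of all protein-coding genes, 49.6% (dotted) and 51.4% (dashed), and the red bars of vesicle, postsynaptic, cytoskeleton and neuron identity genes pass them.

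Of the marker lists, neuron identity genes differed between the libraries in the same direction as the members. They summed to 60 distal peaks in the tallest peaks of replicate 1 and 20 in replicate 2, with promoter heights of 16.1 and none at Neurod2 and 14.5 and none at Elavl3. Motor neuron genes had promoter peaks at 3 of 6 in replicate 1, with 0 among the tallest, and at 0 of 6 in replicate 2. The 3 were Prph (1.01), Isl1 (0.817) and Slc5a7 (0.448), while Mnx1, Chat and Slc18a3 had none. For this list and those that follow, the shares of all genes were 66.7% in replicate 1, 49.6% in its tallest peaks and 51.4% in replicate 2. Astrocyte genes had 2 of 6 in the tallest peaks of replicate 1 and 2 of 6 in replicate 2, oligodendrocyte genes 0 and 0 of 6, microglia and macrophage genes 0 and 1 of 6, and Schwann cell genes 3 and 4 of 8, with Sox10 without one in either. The part that any of these cells had in the peaks at the 10 genes was not tested, and the library and whatever differed between the pools of animals cannot be told apart.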

How the data were processed

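DNase-seq peaks, footprints and FDR intervals of 2 gastrocnemius libraries were analysed. The deposited height of a peak is a signal normalized to read depth by the authors. This reading rests on the file lists, which name a read-depth normalized signal from the same alignments. The deposited intervals carry an FDR (a q-value) of at most 0.05, as the authors gave it. The score in the deposited footprint lists is the same for every footprint, so they were only counted. Per the file lists deposited with each library, its own filtered alignments on mm10 went into its files, and libraries were not pooled. The names of the aligner and callers, with their thresholds, were not given in the sources used here (file lists and labels).

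The shorter of the 2 peak lists of each library was used. Peaks were placed against all TSS of protein-coding genes of GENCODE M21. Motifs were matched to GRCm38.p6 on both strands, RE1 with up to 3 mismatches. RE1 and CTCF are given by name. No test between groups was possible with 1 group. Members and lists were chosen with earlier results of these data known; the RE1 count by mismatches was added after seeing the data. Named genes were all members and, of the wider list, those with the tallest promoter peaks without one in replicate 2 or the most distal peaks. Some genes that this rule or the marker lists name are not reported here. Precision is limited to counting, and no read totals were used. Overlaps differed from bedtools in 0 of 1035 simulated pairs, and 200 of 200 planted RE1 sites were found. The computing used pandas 2.3.3 and numpy 2.4.6 in Python 3.11.15, pysam 0.24.0 for sequence, numba 0.67.0 for motifs and matplotlib 3.10.9 for plots.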

Additional observations from a re-analysis of the deposited data

How the results depend on the processing

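Most counts kept within 1.5 times their value under the alternatives tried: 38 did and 6 did not. With a promoter window of 2 kb, 7 members had a promoter peak in replicate 2 and in both libraries, and 7 had a footprint there in replicate 2, against 4 each at 1 kb. Of all genes, 52.6% had a peak within 2 kb in replicate 2. The shares of all genes at 2 kb for both libraries and for footprints are not given here. The peaks that enter lie at Stmn2 (1129 bp before the TSS, on its RE1 match), Slc17a7 (1639 bp before) and Nrgn (1150 bp after). With a distal window of 20 kb, 4 members had more distal peaks in the tallest peaks of replicate 1 than in replicate 2, against 7 at 50 kb. The share of all genes at 20 kb is not given here, so that count has no background beside it. In the longer list of replicate 2, 42 genes of the wider list had a promoter peak, against 24. Counted without replicate 1 or without replicate 2, the members with a promoter peak ran from 4 to 10. The cause of these moves was not tested, beyond the windows and list lengths that define them. All 10 members had a promoter peak in replicate 1 in each alternative run. No paired analysis was possible because there is a single group. Read totals were not used here, so the depth behind an absent peak in replicate 2 is unknown, and such a peak is one not listed, not one shown to be absent.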
